A study of Ovis aries and Sus scrofa and Bos taurus with 33 samples.

Results

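Vimentin and the genes for the chains of collagen types I and III were examined in bovine embryonic disc stem cells (EDSCs), which are pluripotent lines grown from cattle embryos. The set was VIM (ENSBTAG00000018463), COL1A1 (ENSBTAG00000013103), COL1A2 (ENSBTAG00000013472) and COL3A1 (ENSBTAG00000021466), 4 of the 21861 genes listed for the species. Its members were taken by Ensembl identifier and not by a rule on measured values, though with earlier results of these data known. All 4 were highest in the same library, line 13 at passage 16, but their levels were very unequal. VIM was between 301 and 1006 FPKM (reads on a gene scaled to its length and to the library total) and COL1A1 between 22.1 and 202. COL3A1 did not exceed 4.97 FPKM and COL1A2 did not exceed 1.17. Libraries of 1 line differed several-fold in COL1A1 and COL3A1, and none of the 4 genes passed the test for a difference among lines.

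Bulk RNAseq had been performed on 9 bovine libraries from 3 EDSC lines, line 6 (passages 14, 16 and 17), line 13 (passages 16, 17 and 19) and line 16 (passages 15, 16 and 17). All lines were kept in AFX, which is N2B27 medium supplied with activin A, FGF2 and XAV939, a tankyrase inhibitor, on laminin and fibronectin and without feeder cells or serum. The methods describe derivation from inner cell masses of blastocysts produced in vitro, and the labels give neither the embryo nor the sex behind a line, nor any treatment or genetic change. The libraries of a line are passages of a culture that carries on, so p-values measure only the spread between passages and not between separate embryos or separate derivations.

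Vimentin is the intermediate filament protein of mesenchymal cells and of many cells in culture, pluripotent ones included. Fibrillar collagens are secreted into the extracellular matrix by fibroblasts and other mesenchymal cells. COL1A1 and COL1A2 encode the α1 and α2 chains of type I collagen, whose usual molecule joins a pair of α1 chains with a single α2 chain, and COL3A1 encodes the only chain of type III collagen. These genes are widely used to follow mesenchymal or differentiated cells in culture. In bulk RNA a small number of cells with much transcript and many cells with little cannot be told apart.

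The bovine table does not pair identifiers with symbols, so the symbols given here came with the identifiers. The gene length that underlies each FPKM could be worked out, at 1849 bases for VIM, 4838 for COL1A1, 5238 for COL1A2 and 5405 for COL3A1. The longest mRNA of the pig gene of the same symbol in the RefSeq annotation of Sscrofa11.1 was 2920, 6140, 5085 and 4768 bases. VIM was the shortest in both species, but the collagens ran in the reverse order. A gene length and a single mRNA are unlike measures, so the comparison does not settle the identity of the rows. No bovine genome or annotation was used, so positions and sequences of the genes are not given. For the same reason 13 lists of related genes set by symbol (other collagens, collagen-modifying enzymes, markers of pluripotent and of other cells) were not analysed here, and the label of the cells was not checked against markers.

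Library totals were between 10118008 and 14485798 reads on protein-coding genes, and 16292 to 16892 genes had at least 1 read. Over all genes, the mean correlation of a library with the other 8 was between 0.985 and 0.990. Line 13 at passage 16 and line 6 at passage 17 had the lowest means, at 0.9856 and 0.9854. Line 13 at passage 16 also held the most genes that reached 1 FPKM and were at least 2 times above every other library, 67 genes against 1 to 40 elsewhere, and COL1A1 and COL1A2 are among the 67. Of all 13630 genes with enough reads to be tested, 13.0% were highest in this library.

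VIM was measured at 504, 593 and 301 FPKM in line 6 at passages 14, 16 and 17. It was 1006, 622 and 710 FPKM in line 13 at passages 16, 17 and 19, and 370, 490 and 603 FPKM in line 16 at passages 15, 16 and 17. VIM was therefore abundant everywhere, and the lowest value of line 13 was above the highest values of the other lines. Ranges were apart in the same way, in either direction, for 22.0% (lines 13 and 6) and 20.5% (lines 13 and 16) of tested genes. The mean over the 9 libraries was 578 ± 205 FPKM (SD, n = 9), with a 3.34-fold span from lowest to highest. VIM ranked between 31 and 161 among the 21861 listed genes, with a median rank of 82. Each value rests on 6908 to 19168 reads, so counting error was small beside the spread. In the order of the 9 levels, 3 of the 8 neighbouring pairs had overlapping 95% Poisson intervals, those between line 13 passage 17, line 16 passage 17 and line 6 passage 16, and between line 6 passage 14 and line 16 passage 16.

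COL1A1 was 24.7, 85.0 and 22.1 FPKM in line 6 at passages 14, 16 and 17. In line 13 it was 202, 44.7 and 72.5 FPKM at passages 16, 17 and 19, and in line 16 it was 27.4, 47.1 and 96.8 FPKM at passages 15, 16 and 17. Each line thus contained 1 library well above its others, and the ranges of the 3 lines overlapped. The mean was 69.1 ± 56.6 FPKM (SD, n = 9) and the highest library stood 9.12-fold over the lowest, from 1270 to 10054 reads. Its rank was between 263 and 3729 with a median of 1742, so that 82.9% to 98.8% of listed genes were lower. Only 2 of the 8 neighbouring pairs of levels had overlapping counting intervals, line 16 passage 16 with line 13 passage 17, and line 6 passage 14 with line 6 passage 17.

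COL3A1 was 0.348, 1.83 and 0.402 FPKM in line 6, from 20, 100 and 27 reads. It was 4.97, 0.837 and 2.89 FPKM in line 13, from 277, 56 and 226 reads, and 0.348, 0.662 and 1.12 FPKM in line 16, from 25, 49 and 71 reads, with passages in the same order as above. It reached 1 FPKM in 4 libraries, both in line 13 and outside it, and its line ranges overlapped. The mean was 1.49 ± 1.55 FPKM (SD, n = 9), the span was 14.3-fold, and the median rank was 12356. Counting intervals overlapped between 5 of the 8 neighbouring levels. The top 4 libraries were separate from each other, namely line 13 passage 16, line 13 passage 19, line 6 passage 16 and line 16 passage 17.

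COL1A2 was near the limit of detection. It had 0, 12 and 2 reads in line 6, 63, 5 and 26 reads in line 13, and 3, 2 and 2 reads in line 16, or 115 reads in all. In FPKM these were 0, 0.226 and 0.0307 in line 6, 1.17, 0.0771 and 0.343 in line 13, and 0.0431, 0.0279 and 0.0324 in line 16. The 0 reads of line 6 passage 14 allow a level of up to 0.0538 FPKM, taken as 3 reads, and the two-sided 95% Poisson interval used for the other libraries reaches 0.0662. Line 13 passage 16 was the only library at 1 FPKM or more, and the only one set apart from its neighbour in the order, with intervals overlapping in 7 of the 8 neighbouring pairs. The gene passed the filter on low values solely through 3 libraries, line 6 passage 16 and line 13 passages 16 and 19. These intervals and limits cover counting error only.

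**Figure D1:**
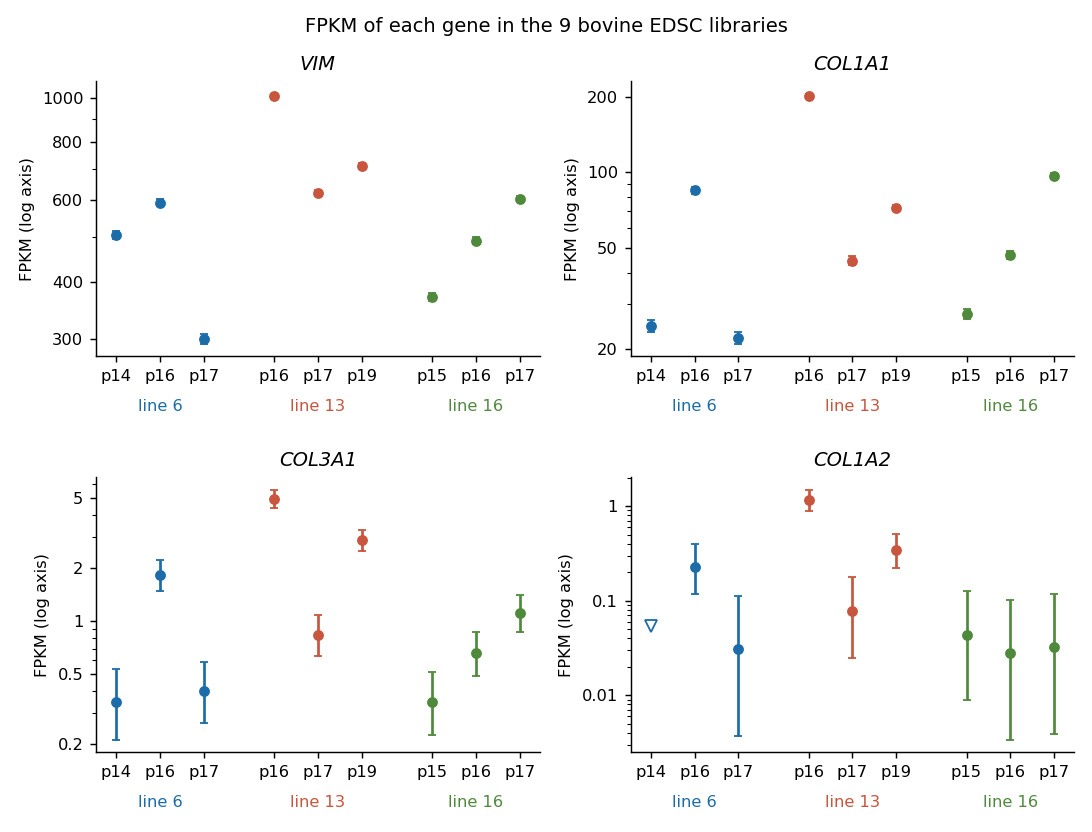
FPKM (log axis, a separate range in each panel) of VIM, COL1A1, COL3A1 and COL1A2 in the 9 bovine libraries by line and passage (p); bars are 95% Poisson intervals of the reads, and the open triangle marks the level of 0.0538 FPKM that 0 reads allow. Line 13 p16 is the highest point in all 4 panels, and the bars of COL1A2 overlap in most libraries.

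By these counts the chains of type I collagen were far from equal in transcript level, although neither the identifier nor the counting of COL1A2 could be checked against the annotation used. The ratio of COL1A1 to COL1A2 in FPKM was 376 in line 6 passage 16 (95% counting interval 215 to 727) and 719 in line 6 passage 17 (199 to 5947), and at least 458 in line 6 passage 14 against the limit of 3 reads, a bound that leaves out the counting error of COL1A1. It was 173 (135 to 225), 580 (248 to 1787) and 212 (144 to 324) in line 13. In line 16 it was 636 (217 to 3088), 1692 (468 to 13975) and 2985 (826 to 24658). The 2 lowest ratios, which were also the narrowest, belonged to the 2 libraries with the most COL1A2 reads, and even there COL1A1 exceeded COL1A2 more than 100-fold per length. The ratio is one of levels per length, over gene lengths of 4838 and 5238 bases.

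COL1A1 exceeded COL3A1 by 25.1 to 86.8-fold, with a median of 55.0. The ratio was 70.9, 46.5 and 55.0 in line 6, 40.5, 53.4 and 25.1 in line 13, and 78.8, 71.2 and 86.8 in line 16. The 3 ratios of line 16 were above those of line 13, but the counting interval in line 13 passage 17 (41.0 to 70.9) overlapped those of all 3 libraries of line 16. The lowest ratio, in line 13 passage 19 (95% interval 22.0 to 28.8), was separate from every other library. COL3A1 exceeded COL1A2 by 4.26 to 34.4-fold in the 8 libraries with reads for both (median 9.64), and by at least 6.46-fold in line 6 passage 14 on the same limit, leaving out the counting error of the 20 COL3A1 reads. VIM exceeded COL1A1 by 4.99 to 20.4-fold (median 10.4), and the smallest factor was in line 13 passage 16, where both genes were highest.

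**Figure D2:**
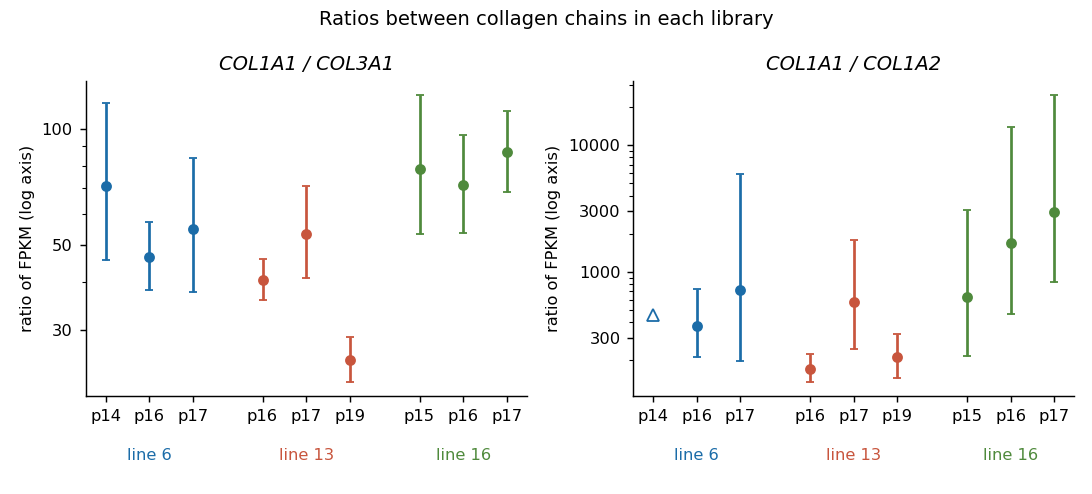
Ratio of FPKM (log axes) of COL1A1 to COL3A1 and of COL1A1 to COL1A2 in each of the 9 libraries by line and passage (p); bars are 95% intervals from the reads of both genes, and the open triangle is a lower limit, at least 458, where COL1A2 had 0 reads. COL1A1 to COL3A1 lies between 25.1 and 86.8, whereas COL1A1 to COL1A2 exceeds 100 throughout.

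The spread between libraries of a line was wide for these genes. As a measure, the SD of log2(FPKM + 1) around the line means was pooled over the 3 lines, and its median over the 13630 tested genes was 0.17. For COL1A1 it was 1.02, with 99.9% of tested genes below and 16 above. It was 0.63 for COL3A1 (98.8% below), 0.41 for VIM (94.6% below) and 0.31 for COL1A2 (87.4% below). Counting error alone would give 0.03 for COL1A1, 0.08 for COL3A1, 0.01 for VIM and 0.05 for COL1A2. Against genes with a mean within a factor of 2 of their own, the shares below were 99.8% of 1941 genes for COL1A1, 98.5% of 2324 for COL3A1, 94.8% of 134 for VIM and 98.3% of 574 for COL1A2.

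Without line 13 passage 16, the shares of tested genes with a smaller spread were 99.7% for COL1A1, 98.2% for COL3A1 and 94.1% for VIM. For COL1A2 the share dropped to 37.6% and the SD to 0.14, so on the log2(FPKM + 1) scale its wide spread rested on that library. With 0.1 added in place of 1 its share over all 9 libraries was 99.1%, and leaving out that library was not examined there. In linear terms, the highest library of a line exceeded the lowest by 3.85, 4.51 and 3.53-fold for COL1A1 in lines 6, 13 and 16. The matching spans were 5.26, 5.94 and 3.20-fold for COL3A1 and 1.97, 1.62 and 1.63-fold for VIM. No line was even in COL1A1 or COL3A1.

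**Figure D3:**
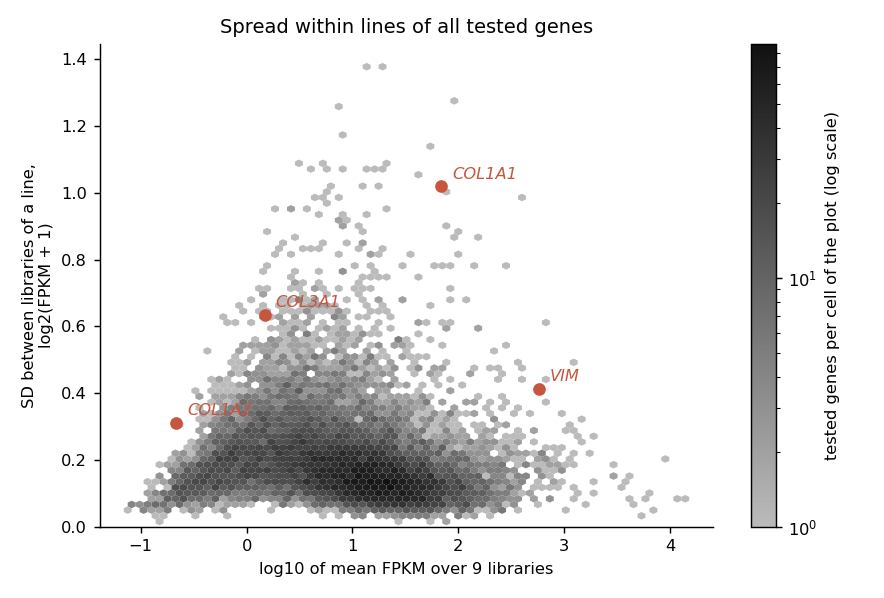
SD of log2(FPKM + 1) between libraries of a line, pooled over 3 lines, against log10 of the mean FPKM for the 13630 tested genes; grey cells are shaded by the number of genes (log scale) and the red points are the 4 genes described. COL1A1 at 1.02 lies near the upper edge, with 16 genes above it, and COL3A1 at 0.63 and VIM at 0.41 are well above the median of 0.17.

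Passages 16 and 17 were sampled in every line, which allows a comparison at the same passage numbers. Line 6 passage 17 and line 13 passage 16 had the lowest mean correlations with the other libraries, and each enters the change of its own line. In line 6 all 4 genes were lower at passage 17, COL1A1 by 3.85-fold, COL3A1 by 4.55-fold and VIM by 1.97-fold. In line 13 they were lower as well, COL1A1 by 4.51-fold, COL3A1 by 5.94-fold and VIM by 1.62-fold. Line 16 went the other way, with passage 17 over passage 16 at 2.05 for COL1A1 (95% counting interval 1.96 to 2.15), 1.69 for COL3A1 (1.15 to 2.48) and 1.23 for VIM (1.201 to 1.261). COL1A2 had 2 reads at both passages in line 16. Its ratio of passage 17 to 16 was 0.136 (0.0148 to 0.610) in line 6 and 0.0661 (0.0207 to 0.162) in line 13. Lower values in lines 6 and 13 with a higher value in line 16 were seen in 14.9% of all tested genes. There was 1 library per line and passage, and the difference between lines in this change was not tested.

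Whether the genes moved together was assessed from the deviations of log2(FPKM + 1) from the line means, which takes any difference between lines out. COL1A1 was 1.21 above its line mean in line 6 passage 16, 1.204 above in line 13 passage 16 and 0.93 above in line 16 passage 17. COL3A1 was also furthest above its line mean in these libraries, by 0.69, 0.77 and 0.33. VIM had its 3 largest positive deviations in the same libraries, at 0.40, 0.40 and 0.33. For all 3 genes, the library that stood highest in a line was therefore shared, and it was not at one passage.

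The lowest libraries were shared less completely. In line 13, passage 17 was lowest for all 4 genes, with deviations of -0.94 for COL1A1, -0.93 for COL3A1, -0.44 for COL1A2 and -0.30 for VIM. In line 16, passage 15 was lowest for COL1A1 (-0.85), COL3A1 (-0.32) and VIM (-0.37). In line 6, passage 17 was lowest for VIM (-0.57) and COL1A1 (-0.68), whereas COL3A1 was lowest at passage 14 (-0.38, against -0.32 at passage 17). COL1A2 in line 16 deviated by -0.0092 to 0.012, at 2 or 3 reads.

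**Figure D4:**
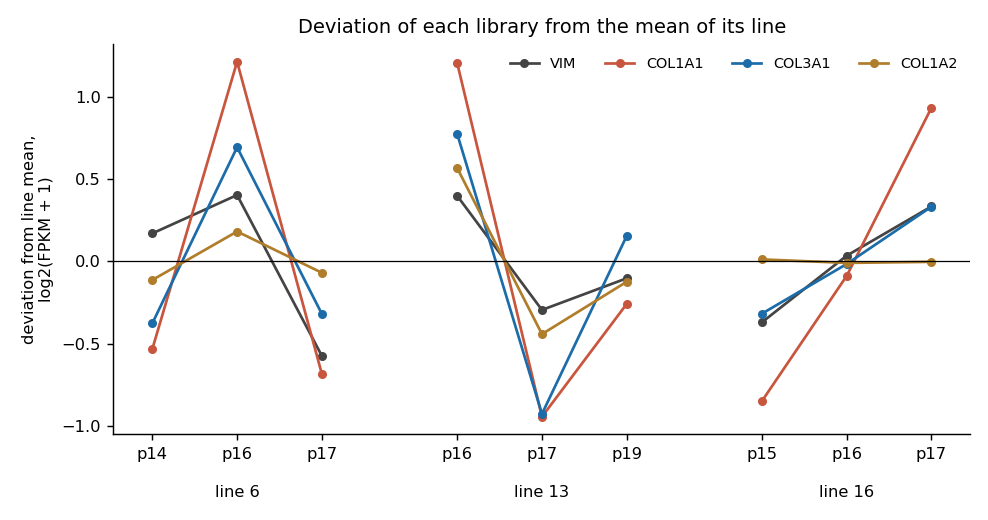
Deviation of log2(FPKM + 1) from the mean of the line for VIM, COL1A1, COL3A1 and COL1A2, by line and passage, with lines joining the passages of a culture. COL1A1, COL3A1 and VIM peak together at passage 16 in lines 6 and 13 and at passage 17 in line 16, and COL1A2 is flat in line 16.

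COL1A1 and COL3A1 had the strongest relation, with Pearson r = 0.93 and Spearman rho = 0.90 of the deviations over 9 libraries (two-sided exact permutation within lines, p = 0.00926 for both, Benjamini-Hochberg adjusted p = 0.0417 for r and 0.0278 for rho over 6 pairs). VIM and COL1A1 followed with r = 0.87 and rho = 0.88 (exact permutation p = 0.0139 and 0.00926, adjusted p = 0.0417 and 0.0278). These 2 pairs passed the threshold, and leaving out the 2 libraries farthest from the median of the first gene left r at 0.83 and 0.90. The libraries left out were line 6 passage 16 and line 13 passage 16 for COL1A1. For VIM they were line 6 passage 17 and line 16 passage 15, so the highest libraries of VIM stayed in. The 216 orderings within lines allow a smallest p of 0.00463, and fewer orderings remain when a library is left out. With single libraries left out, r was between 0.89 and 0.98 for COL1A1 and COL3A1 and between 0.83 and 0.98 for VIM and COL1A1. Adjusted p was then 0.0556 to 0.167 by exact permutation, so neither pair passed in any of these runs, which held fewer orderings.

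The other 4 pairs did not pass after adjustment. VIM and COL3A1 had r = 0.76 and rho = 0.72 (exact permutation p = 0.0556 and 0.0880, adjusted p = 0.0667 and 0.132). COL1A2 and COL3A1 had r = 0.86 and rho = 0.77 (exact permutation p = 0.0463 and 0.0648, adjusted p = 0.0667 and 0.130). COL1A1 and COL1A2, the partner chains of type I collagen, had r = 0.76 and rho = 0.67 (exact permutation p = 0.0509 and 0.130, adjusted p = 0.0667 and 0.156). Without the 2 libraries farthest from the median of COL1A1 this r was 0.47, so it rested on them. Leaving out the 2 libraries farthest from the median of the first gene gave 0.69 for COL1A2 and COL3A1, 0.83 for VIM and COL3A1 and 0.83 for VIM and COL1A2. The libraries left out differ between genes. They were line 13 passages 16 and 17 for COL1A2. For VIM they were its lowest, line 6 passage 17 and line 16 passage 15, so its highest stayed in. Without line 13 passage 16 alone, r was 0.42 for VIM and COL1A2 and 0.67 for VIM and COL3A1. VIM and COL1A2 had r = 0.59 and rho = 0.55 (exact permutation p = 0.106 and 0.208, adjusted p = 0.106 and 0.208).

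As a background for these values, the median r of the deviations of COL1A1 with all tested genes was -0.09, and 0.756% of tested genes had an r with COL1A1 as high as that of COL3A1. An r with VIM as high as that of COL1A1 was found for 2.25% of tested genes, as high as that of COL3A1 for 6.58%, and as high as that of COL1A2 for 13.7%. The share was 5.65% for COL1A1 with COL1A2 and 1.29% for COL1A2 with COL3A1. Over the 9 libraries without removal of line means, r was 0.90 for COL1A1 and COL3A1, 0.92 for COL1A2 and COL3A1, 0.88 for VIM and COL1A1, 0.87 for VIM and COL3A1, 0.79 for COL1A1 and COL1A2 and 0.77 for VIM and COL1A2. Of the 36 pairs of libraries, 27 to 31 had 2 of the genes differing in the same direction, with 31 for COL1A2 and COL3A1, 30 for COL1A1 and COL3A1, and 29 for VIM with COL1A1 and with COL3A1.

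Lines were compared by limma on log2(FPKM + 1), with adjustment over all 13630 tested genes. Line means were 466 ± 150, 779 ± 201 and 488 ± 117 FPKM for VIM in lines 6, 13 and 16 (SD, n = 3 each). They were 43.9 ± 35.6, 106 ± 83.7 and 57.1 ± 35.7 FPKM for COL1A1, and 0.859 ± 0.840, 2.90 ± 2.07 and 0.708 ± 0.386 FPKM for COL3A1. COL1A2 averaged 0.0857 ± 0.123, 0.529 ± 0.568 and 0.0345 ± 0.00782 FPKM. The mean of line 13 was the highest for every gene.

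The F-test among lines called 3.18% of tested genes (433 genes) and 0 of these 4. The limma adjusted p was 0.238 for VIM, 0.275 for COL3A1, 0.351 for COL1A2 and 0.516 for COL1A1. Before adjustment VIM and COL3A1 were below 0.05, at 0.0330 and 0.0449 by limma, as were 17.2% of tested genes. The 4 genes did not pass in any of the 3 pairwise comparisons, in which 2.58% (line 13 against 6), 1.18% (line 16 against 6) and 1.95% (line 16 against 13) of tested genes did. A p above the threshold does not show that the lines were alike, and the intervals are wide.

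Line 13 exceeded line 6 in VIM by 0.77 on the log2(FPKM + 1) scale (SE 0.27, 95% interval 0.17 to 1.36, limma adjusted p = 0.184). The same difference was 1.25 for COL1A1 (SE 0.64, -0.17 to 2.66, adjusted p = 0.349), 0.999 for COL3A1 (SE 0.41, 0.09 to 1.90, adjusted p = 0.245) and 0.44 for COL1A2 (SE 0.21, -0.03 to 0.90, adjusted p = 0.325). Differences of COL1A2 and COL3A1 on this scale understate folds, since their levels are low against the added 1. With 0.1 added in place of 1, line 13 minus line 6 was 1.51 for COL1A2 and 1.68 for COL3A1, and with limma voom on whole reads it was 2.87 and 1.85, with adjusted p from 0.244 to 0.271. Line 16 minus line 13 was -1.79 for COL1A2 and -1.70 for COL3A1 with 0.1 added, and -2.91 and -1.83 with limma voom, with adjusted p from 0.230 to 0.285.

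Line 16 against line 13 gave -0.67 for VIM (-1.27 to -0.08, adjusted p = 0.272), -1.06 for COL3A1 (-1.96 to -0.15, adjusted p = 0.253), -0.50 for COL1A2 (-0.97 to -0.03, adjusted p = 0.294) and -0.78 for COL1A1 (-2.20 to 0.63, adjusted p = 0.612). Lines 16 and 6 were closest, with 0.09 for VIM (-0.50 to 0.69), 0.46 for COL1A1 (-0.95 to 1.88), -0.06 for COL1A2 (-0.53 to 0.40) and -0.06 for COL3A1 (-0.96 to 0.85), and with adjusted p from 0.943 to 0.995. With single libraries left out, line 13 minus line 6 was between 0.48 and 0.97 for VIM, 0.64 and 1.85 for COL1A1, 0.61 and 1.46 for COL3A1, and 0.15 and 0.66 for COL1A2. Line 16 minus line 13 was then between -0.84 and -0.47, -1.25 and -0.18, -1.52 and -0.67, and -0.72 and -0.22 for the same genes. For the collagens the smallest sizes of both were without line 13 passage 16, and the largest without line 13 passage 17, except COL1A1 in lines 13 and 6 (without line 6 passage 16).

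The ranges of VIM in line 13 did not overlap those in line 6 or line 16, against the 22.0% and 20.5% of tested genes given above. The levels of COL1A2 in lines 13 and 16 did not overlap either, but at 5 and 3 reads the counting intervals of the nearest libraries did, and the gene had passed the filter through no library of line 16. All other ranges of the 4 genes overlapped, those of lines 16 and 6 in every case, which were apart for 14.5% of tested genes.

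**Figure D5:**
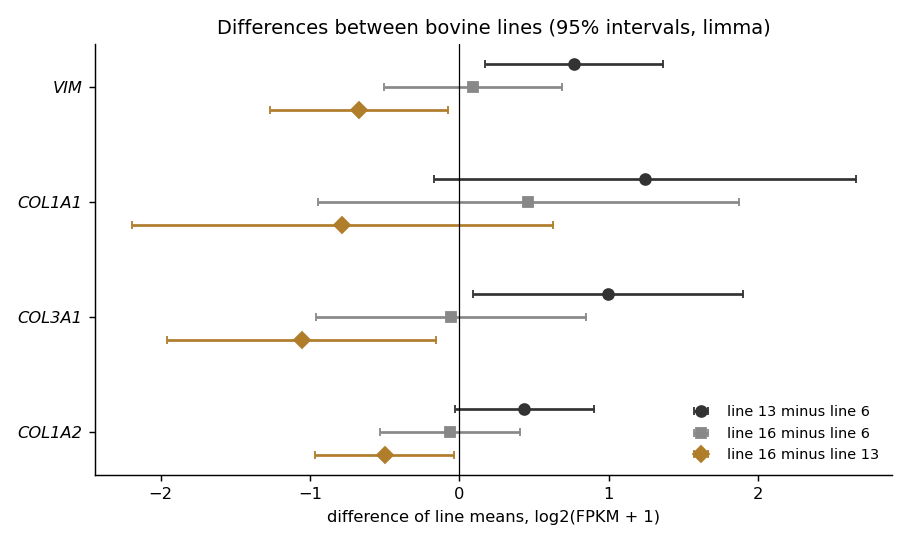
Differences between lines in log2(FPKM + 1) for each gene; points are limma estimates and bars their 95% intervals before adjustment, for lines 13 minus 6, 16 minus 6 and 16 minus 13. Line 13 is on the higher side for all 4 genes, the intervals are widest for COL1A1, and no contrast passed after adjustment.

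No trend with passage was found. With line kept as a factor, the slope per passage was -0.07 for VIM (95% interval -0.30 to 0.15), 0.04 for COL1A1 (-0.51 to 0.59), -0.06 for COL1A2 (-0.24 to 0.12) and 0.05 for COL3A1 (-0.29 to 0.40) on the log2(FPKM + 1) scale, all with a limma adjusted p of 1.0. The limma fit called 0.0% of tested genes, and 230 genes were below an unadjusted p of 0.05. A change of COL1A1 by up to 0.5 per passage in either direction lies within the interval.

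Genes with a like pattern were counted by r of log2(FPKM + 1) over the 9 libraries, among tested genes whose mean reached 1 FPKM. An r of 0.9 or more was found for 147 of 12013 genes with VIM (1.22%), 113 with COL1A1 (0.941%), 71 with COL3A1 (0.591%) and 24 of 12014 with COL1A2 (0.2%). COL3A1 was among the genes like COL1A1 and like COL1A2, and COL1A1 was among those like COL3A1. COL1A2, with a mean of 0.216 FPKM, was below the minimum and could not be counted in any set. The 4 genes correlated with each other over the same 9 libraries, so sharing between their sets is partly given and adds no separate support. The sets of COL1A1 and COL3A1 shared 36 genes, 31.9% of the first and 50.7% of the second. Those of VIM and COL1A1 shared 30, 20.4% and 26.5%. The sets of VIM and COL3A1 shared 25 genes, 17.0% and 35.2%. The set of COL1A2 shared 11 genes with that of COL3A1 (45.8% and 15.5%), 7 with that of COL1A1 (29.2% and 6.19%) and 4 with that of VIM (16.7% and 2.72%).

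The gene most like VIM was ENSBTAG00000014324 (r = 0.982, mean 11.3 FPKM, 5.05 to 24.0). The gene most like COL1A1 was ENSBTAG00000007141 (r = 0.984, mean 10.8 FPKM, 7.08 to 18.1). Both were picked on their values and are given by identifier only.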

How the data were processed

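Libraries had been made with a directional kit after removal of ribosomal RNA. Reads had been trimmed (Trim-Galore), mapped to the bovine genome ARS-UCD1.2 (STAR) and counted over gene loci (FeatureCounts) by the authors. Their analysis considered only protein-coding genes, and log2(FPKM + 1) was deposited in a table that is named as raw counts. The annotation release and the strand setting of the counting are not given in the sources used here, so reads of overlapping genes may not have been told apart. FPKM was taken as 2 to the deposited log2 value, minus 1. Whole reads were worked back for 100% of the 18900 genes above 0 (within 0.0001 reads) and add up to at least 99.96% of each library total. Genes with 10 reads, scaled to the median library total of 12382917, in at least 3 libraries and with 15 reads in total were tested, 13630 genes, by limma 3.58.1 in R 4.3.3 (lmFit, and eBayes with a mean-variance trend). Adjustment followed Benjamini and Hochberg, with a threshold of 0.05. Correlations were tested by reordering libraries within lines, in Python 3.11.15 with numpy 2.4.6 and scipy 1.17.1. Count intervals are exact Poisson or binomial intervals at 95%. The scripts were tested on simulated data. Line and passage came from the labels, and 0 table columns were unmatched. The genes, gene lists and tests were chosen with earlier results of these data known. The genes named are the 4 of the set and, since no symbols were at hand, 2 identifiers with the most similar pattern. Porcine and ovine libraries were not used here.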

Additional observations from a re-analysis of the deposited data

Results flagged for a closer look

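Line 13 at passage 16 stood apart from the other 8 libraries in COL1A1 and COL1A2. Its COL1A1 level of 201.6 FPKM was separated from the next library by 0.584 of the whole range, its COL1A2 level of 1.167 FPKM by 0.706, and its COL1A2 value of 1.116 on the log2(FPKM + 1) scale by 0.619, against Dixon's critical share of 0.493 for 9 values. On the log2 scale the share for COL1A1 was 0.336, below that limit. Of 8 values examined (4 genes on both scales) 3 passed, but both COL1A2 values are the same reads on different scales. Chance gives about 1 in 20 for independent values of normal spread, which these are not, so the count of 3 cannot be set against it. The COL1A2 value rests on 63 reads and the COL1A1 value on 10054. The 9 libraries come from 3 lines, so they are not a single group of replicates.

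VIM, COL1A1 and COL3A1 differed between lines in their change from passage 16 to passage 17. The ratio of passage 17 to 16 was 1.23, 2.05 and 1.69 in line 16, whereas it was 0.507, 0.260 and 0.220 in line 6 and 0.618, 0.222 and 0.168 in line 13. The same directions (lower in lines 6 and 13, higher in line 16) were seen in 14.9% of all tested genes. Line 6 passage 17 and line 13 passage 16 had the lowest mean correlations with the other libraries over all genes. Each value compares 1 library with 1 library, and the difference between lines was not tested.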

How the results depend on the processing

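Of 359 alternative tests of the 4 genes for a line difference or a passage slope, 0 had an adjusted p under 0.05; the lowest was 0.0586, for COL3A1 in line 16 against 13 without line 13 passage 17, and 20 changed sign. The slope changed sign in 6 of 19 alternatives for COL1A1, 3 of 18 for COL1A2, 2 of 19 for COL3A1 and 2 of 19 for VIM. Among these were VIM at 0.015 without line 6, and COL1A1 at -0.14 and COL3A1 at -0.0036 without line 16. COL1A2 was at 0.0094 with limma voom on recovered whole reads and 0.021 without line 13. COL3A1 in line 16 against 6 was 0.018 with limma voom. With single libraries left out, line 16 minus 6 was between -0.19 and 0.30 for VIM, -0.0042 and 1.07 for COL1A1, -0.12 and 0.027 for COL1A2, and -0.25 and 0.29 for COL3A1. The slopes were then between -0.14 and 0.038, -0.12 and 0.33, -0.13 and 0.053, and -0.045 and 0.25. The r of deviations was then between 0.83 and 0.98 for VIM with COL1A1 and between 0.89 and 0.98 for COL1A1 with COL3A1. Adjusted p by exact permutation was 0.0556 to 0.167 in both, so neither pair passed in these runs, where fewer reorderings remained. Rescaling to TPM or to the upper quartile, also chosen after seeing the data, turned no difference between passages 16 and 17. COL1A2 could not be fitted under a minimum mean of 1 FPKM.

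Counts over all genes moved more. The F-test called 285 genes with the order of passages as a replicate block, 73 with passages 16 and 17 only and 53 with passage as a block in these. Line 13 against 6 gave 191, 70 and 41 under the same settings, and 224 without a filter. Line 16 against 13 gave 164, 42 and 21, and line 16 against 6 gave 38 and 17 under the latter pair. Without single libraries the counts were 240 to 461, 172 to 301 (line 13 against 6), 79 to 176 (line 16 against 6) and 102 to 418 (line 16 against 13). The lowest values came without line 16 passage 15, except for line 13 against 6 (without line 13 passage 19). Deviations of libraries of the same order in different lines had r from -0.35 to 0.40 in 9 pairs. Libraries of different order were not compared, so these values cannot show whether the order pairs samples. The block changed no call of the 4 genes. With a pseudocount of 0.1, the share of tested genes with a smaller spread within lines was 82.5% for VIM and 99.1% for COL1A2, an alternative chosen after seeing the data.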
